A study of Mus musculus with 4 samples.

Results

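The core and naive pluripotency factors were 10 genes taken by name, under a rule that uses their known role and no threshold on measured values: the core factors Pou5f1, Sox2 and Nanog, and the naive factors Esrrb, Klf2, Klf4, Klf5, Tfcp2l1, Tbx3 and Zfp42. Earlier results of these data were known when these genes and the other lists below were chosen. All 10 were found among the 50559 genes listed, and all 10 were among the 18144 genes with enough counts to be tested. They were measured by RNA-seq in mouse ESCs of the line E14, transfected with an siRNA against Cnot1 (siCnot1) or with a non-targeting siRNA (siNT), with 2 libraries in each group. The siRNAs were used at 150 nM, and the cells were taken 48 h after transfection. Both groups were grown on gelatin in medium with 15% serum replacement and LIF at 1000 U/ml, and the study describes its ESCs as carrying a tdTomato reporter under the MERVL promoter. The sources used here do not say which of the siRNAs against Cnot1 was used, and the comparison covers 1 time point. The question the comparison addresses is how the RNAs of the pluripotency network stood when CNOT1, the scaffold of the CCR4-NOT deadenylase, was silenced.

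OCT4 (encoded by Pou5f1) and SOX2 bind next to each other on composite sites at enhancers of ESC genes, and together with NANOG they act on each other's genes and on their own. Around this core, ESCs grown with LIF use a wider set of factors that hold the naive state of the pre-implantation epiblast. STAT3, activated by LIF, induces Klf4 and Tfcp2l1, ESRRB works downstream of NANOG and of GSK3 inhibition, and the Krüppel-like factors KLF2, KLF4 and KLF5 bind similar GC-rich motifs and can partly replace each other.

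Library totals ranged from 32135824 to 32557440 counts on genes, so depth was similar in the groups. Pearson's r of log2 CPM across tested genes was 0.995 within each group and 0.985 to 0.987 between groups. Cnot1 itself was measured at 913 and 986 normalized CPM (CPM, library-scaled counts corrected by edgeR's TMM factors) in the siNT replicates and at 185 and 192 in the siCnot1 replicates, which is 19.8% of the control level. The study describes the 2 libraries of a group as independent biological replicates. The p-values rest on the spread between replicates, estimated with information shared across tested genes rather than from each gene alone. The cells carried the transcripts that mark ESCs: 90.3% of tested genes lay below even the least abundant of the 10 factors in average log2 CPM.

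In siCnot1 cells 7 of the 10 factors fell and none rose at an adjusted p under 0.05 (edgeR's quasi-likelihood test, adjusted over all genes tested). The 7 were Klf5, Tbx3, Pou5f1, Nanog, Esrrb, Sox2 and Tfcp2l1, with changes from -10.1% to -27.2%. Klf2, Klf4 and Zfp42 did not pass, and the count of rises was also 0 at an unadjusted p under 0.05, with DESeq2 and with limma-voom. Of all tested genes, 14.7% were called lower and 15.0% were called higher. With library totals in place of TMM the split was 8.61% lower and 22.0% higher, and 3 members fell and 1 rose. The members are abundant, however, and of the 1703 tested genes that lay within their range of abundance 47.0% were called lower and 11.6% higher. None of the 10 reached the 2-fold change that the study required beside an unadjusted p of at most 0.05. Of tested genes, 1.8% passed both thresholds downward and 6.18% upward in edgeR's test. The median log2 fold change was -0.18 over the members, -0.22 over the core factors and -0.15 over the naive factors, beside 0.0084 over all tested genes and -0.14 over the genes in the members' range. In bulk RNA, fewer cells that express a gene and less RNA per cell cannot be told apart.

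**Figure D1:**
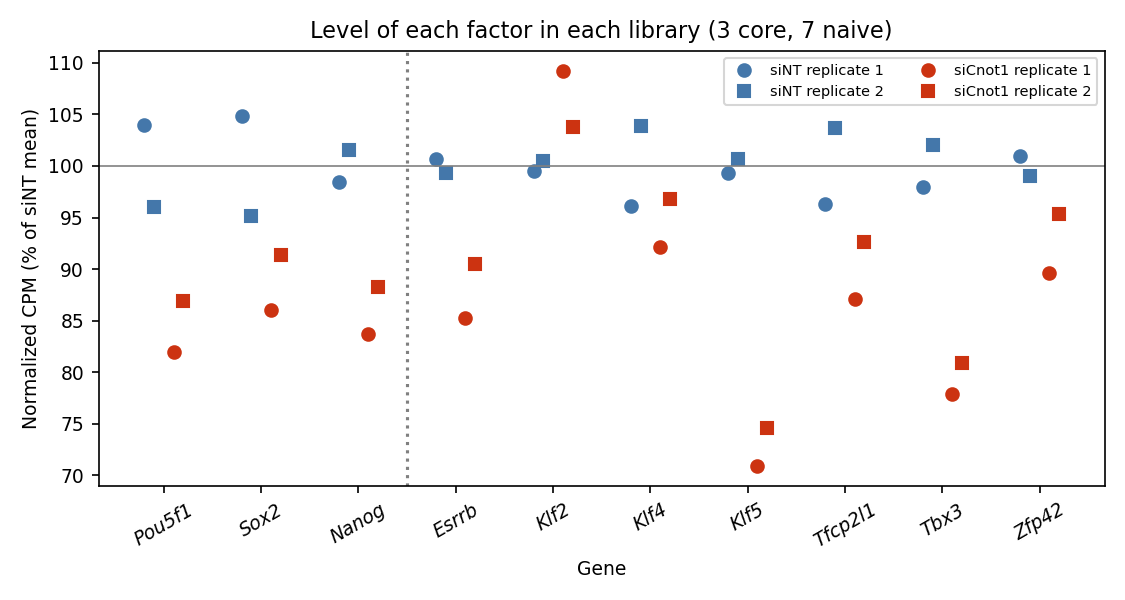
Normalized CPM of each factor in each library, as a percentage of the mean of the siNT replicates (y axis), with the 3 core factors left of the dotted line and each point standing for 1 library. Both siCnot1 libraries lie below both siNT libraries for 8 factors, above them for Klf2, and among them for Klf4.

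Both siCnot1 libraries lay below both siNT libraries for 8 of the 10 factors, a pattern that 31.2% of all tested genes and 63.3% of the genes in the members' range of abundance showed. Klf2 was the only member with both siCnot1 libraries above both siNT libraries, as 32.7% of all tested genes were, and Klf4 was the only member whose groups overlapped.

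Pou5f1 (chromosome 17), the POU factor without which the pluripotent epiblast does not form, was at 1113 and 1028 normalized CPM in siNT and at 878 and 931 in siCnot1. Its log2 fold change was -0.24 (SE 0.0556, 95% interval -0.36 to -0.13, adjusted p = 0.00174), a decrease larger than the gap between replicates in either group. Nanog (chromosome 6), a homeodomain factor that stabilizes self-renewal, was at 1110 and 1144 in siNT and at 943 and 994 in siCnot1. It changed by a log2 fold of -0.22 (SE 0.0530, 95% interval -0.33 to -0.11, adjusted p = 0.00297). Sox2 (chromosome 3), the HMG-box partner of OCT4, was at 522 and 474 in siNT and at 428 and 455 in siCnot1, and its closest libraries were nearer to each other than the replicates within a group. For Sox2 the log2 fold change was -0.17 (SE 0.0583, 95% interval -0.29 to -0.05, adjusted p = 0.0273), and its call was lost without any 1 of the 4 libraries. The 2 listed pseudogene copies of Nanog had at most 5 counts in a library.

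The 3 core transcripts kept nearly the same proportions. Per exon length, the log2 ratio of Nanog to Pou5f1 was -0.64 and -0.48 in the control replicates and -0.53 and -0.54 after knockdown, with the groups overlapping. The log2 ratio of Nanog to Sox2 overlapped as well, at 1.23 and 1.41 in siNT and 1.28 and 1.27 in siCnot1. The log2 ratio of Sox2 to Pou5f1 was -1.87 and -1.89 in siNT, against -1.81 in both siCnot1 libraries, a difference of 0.071 with no overlap between groups. With 2 libraries against 2 an exact permutation test cannot give a p below 0.333, so these ratios are given as descriptions.

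The promoters of 8 members were available from RefSeq (GRCm38.p6, 250 bases before to 50 after the gene's start), with none for Klf5 or Tbx3. The POU part of the site that OCT4 prefers, searched as ATGCAAA on both strands, was in the windows of Nanog, Sox2 and Zfp42, that is 3 of 8, beside 5.24% of the 27025 genes with a window. These windows are shown because they place the letters that a POU factor reads beside genes whose RNA was measured here, with the 7 letters in capitals, each written 5′ to 3′ on the gene's strand.
Nanog, chr6:122707239-122707538, plus strand: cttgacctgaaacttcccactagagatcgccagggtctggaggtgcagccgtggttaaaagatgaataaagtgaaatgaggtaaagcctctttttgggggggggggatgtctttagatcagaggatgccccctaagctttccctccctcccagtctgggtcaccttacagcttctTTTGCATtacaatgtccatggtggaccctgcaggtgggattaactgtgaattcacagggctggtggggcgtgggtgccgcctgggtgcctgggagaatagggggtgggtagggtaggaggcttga
Sox2, chr3:34649745-34650044, plus strand: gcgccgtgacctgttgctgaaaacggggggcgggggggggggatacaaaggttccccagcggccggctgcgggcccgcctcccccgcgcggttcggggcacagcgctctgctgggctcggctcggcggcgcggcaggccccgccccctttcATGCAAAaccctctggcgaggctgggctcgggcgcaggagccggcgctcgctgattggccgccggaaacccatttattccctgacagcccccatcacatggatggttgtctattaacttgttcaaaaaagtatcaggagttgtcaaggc
Zfp42, chr8:43306960-43307259, minus strand: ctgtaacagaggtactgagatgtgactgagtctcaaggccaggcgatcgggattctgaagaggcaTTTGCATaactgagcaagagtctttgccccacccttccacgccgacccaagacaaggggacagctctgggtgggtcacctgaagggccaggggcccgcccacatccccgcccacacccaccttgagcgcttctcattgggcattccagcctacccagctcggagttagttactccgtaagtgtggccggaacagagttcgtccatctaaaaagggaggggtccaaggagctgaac
The 7 letters began at -75 in Nanog, -99 in Sox2 and -185 in Zfp42 relative to the gene's start. RefSeq gives Nanog another, overlapping window with a different start, and from that start the same letters lay at -151.

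The complete octamer ATGCAAAT, which contains the POU letters, was present in Zfp42 alone of the 8 windows and in 1.97% of genes. The SOX letters CATTGTT were in Pou5f1 alone, beside 4.33% of genes, in a search for exact matches only. In the Nanog window printed above, tacaatg follows directly after the POU letters. It differs only in its first letter from AACAATG, the SOX letters on the other strand. The GC box GGGCGGGG, the kind of motif that Krüppel-like factors read, was in Klf2, Klf4, Pou5f1, Sox2 and Zfp42, that is 5 of 8 beside 19.6% of genes. Pou5f1 has separate windows with different starts: the SOX letters lay in chr17:35508557-35508856 and the GC box in chr17:35505782-35506081. The ESRRB letters TCAAGGTCA were in none of the 8 and in 0.466% of genes. A match describes these letters in this window and is no measure of binding. The 3 genes with the POU letters had log2 fold changes of -0.22 (Nanog), -0.17 (Sox2) and -0.11 (Zfp42). The members whose windows lacked them had -0.24 (Pou5f1), -0.19 (Esrrb), -0.15 (Tfcp2l1), -0.08 (Klf4) and 0.09 (Klf2). A link between the letters and the fold changes was not tested.

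The naive factors differed more among themselves than the core factors did, with log2 fold changes from -0.46 to 0.09. Klf5 (chromosome 14), known to hold back differentiation toward mesoderm, fell most of all members. It was at 186 and 189 normalized CPM in siNT and at 133 and 140 in siCnot1, with each group's replicates close together and the groups well apart. Its log2 fold change was -0.46 (SE 0.0591, 95% interval -0.58 to -0.34, adjusted p = 2.98e-06). Tbx3 (chromosome 5), a T-box factor of the LIF-dependent network, was at 260 and 271 in siNT and at 207 and 215 in siCnot1. Its log2 fold change was -0.33 (SE 0.0567, 95% interval -0.45 to -0.22, adjusted p = 9.25e-05), again with a gap between groups much wider than that between replicates. The Tbx3 gene overlaps the antisense gene Tbx3os1, which had 7 to 24 counts in a library.

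Esrrb (chromosome 12), an orphan nuclear receptor, was at 849 and 838 normalized CPM in siNT and at 719 and 763 in siCnot1. The log2 fold change of Esrrb was -0.19 (SE 0.0535, 95% interval -0.30 to -0.08, adjusted p = 0.0102). Tfcp2l1 (chromosome 1), a grainyhead-like factor induced by LIF and STAT3, was at 892 and 960 in siNT and at 806 and 858 in siCnot1. The groups did not overlap, but the lowest siNT and the highest siCnot1 library were closer than the replicates of either group. For Tfcp2l1 the log2 fold change was -0.15 (SE 0.0556, 95% interval -0.27 to -0.04, adjusted p = 0.0390), and its call was lost without any 1 of the 4 libraries.

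Zfp42 (chromosome 8), which encodes REX1, a widely used marker of the naive state, was at 667 and 654 normalized CPM in siNT and at 592 and 629 in siCnot1. Its log2 fold change was -0.11 (SE 0.0541, 95% interval -0.22 to -0.001, adjusted p = 0.123), so the fall did not pass over all genes tested although the groups did not overlap. The listed pseudogene Zfp42-ps1 (chromosome 15) held 16.7% as many counts as Zfp42, and reads of near-identical stretches can go to either. With both summed, a choice made after seeing the data, the log2 fold change was -0.11 (adjusted p = 0.117).

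Klf4 (chromosome 4), a direct target of STAT3, was at 209 and 226 normalized CPM in siNT and at 201 and 211 in siCnot1. The groups overlapped, and its log2 fold change was -0.08 (SE 0.0593, 95% interval -0.20 to 0.04, adjusted p = 0.328). Klf2 (chromosome 8), whose protein is degraded when MEK and ERK are active, was at 129 and 130 in siNT and at 142 and 134 in siCnot1. For Klf2 the log2 fold change was 0.09 (SE 0.0607, 95% interval -0.03 to 0.22, adjusted p = 0.285). Both intervals leave out the fall measured for Klf5.

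Set beside genes of similar abundance, the members differed in position in ways that the counts of calls do not show. Fold change moved with abundance in these data: the median log2 fold change was 0.0084 over all tested genes and -0.25 over the 112 genes within 0.5 log2 CPM of Pou5f1. Of those 112 genes 75.9% were called lower, and 51.8% had a lower log2 fold change than Pou5f1, which therefore stood near their middle. The same held for Sox2, with a median of -0.19 over 342 genes of which 54.4% lay below it, and for Klf4 at 56.6%. Nanog stood somewhat above the median of genes as abundant, which was -0.25 over 100 genes of which 63.0% lay below it, and so did Esrrb, with 62.0% below it. Tfcp2l1 and Zfp42 stood higher, with 70.7% and 70.9% of such genes below them.

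Klf5 and Tbx3 stood low among genes of similar abundance, and Klf2 stood high. Only 42 of the 1249 genes near Klf5 in abundance, or 3.36%, had a lower log2 fold change, and the median of these genes was -0.09. For Tbx3 the share was 12.6% of 802 genes, with a median of -0.12. For Klf2, 78.8% of 1488 genes lay below it, with a median of -0.09 beside its own 0.09. Klf2 and Tbx3 lay between the 5th and 95th percentile of their similar genes, and Klf5 lay below the 5th. These positions are descriptions with no test.

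**Figure D2:**
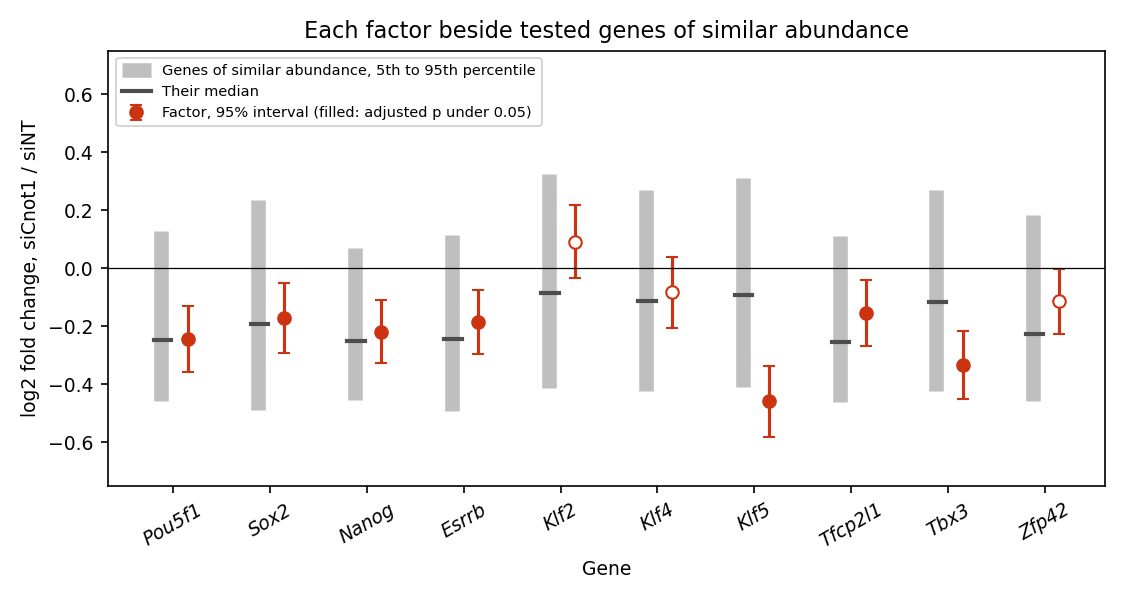
Log2 fold change of each factor (points with 95% intervals, filled where the adjusted p was under 0.05) beside the tested genes within 0.5 log2 CPM of it (grey bars from the 5th to the 95th percentile, with the median as a dark line). Klf5 lies below the grey bar, Tbx3 lies in its lower part, and the intervals of the 3 core factors include the median.

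**Figure D3:**
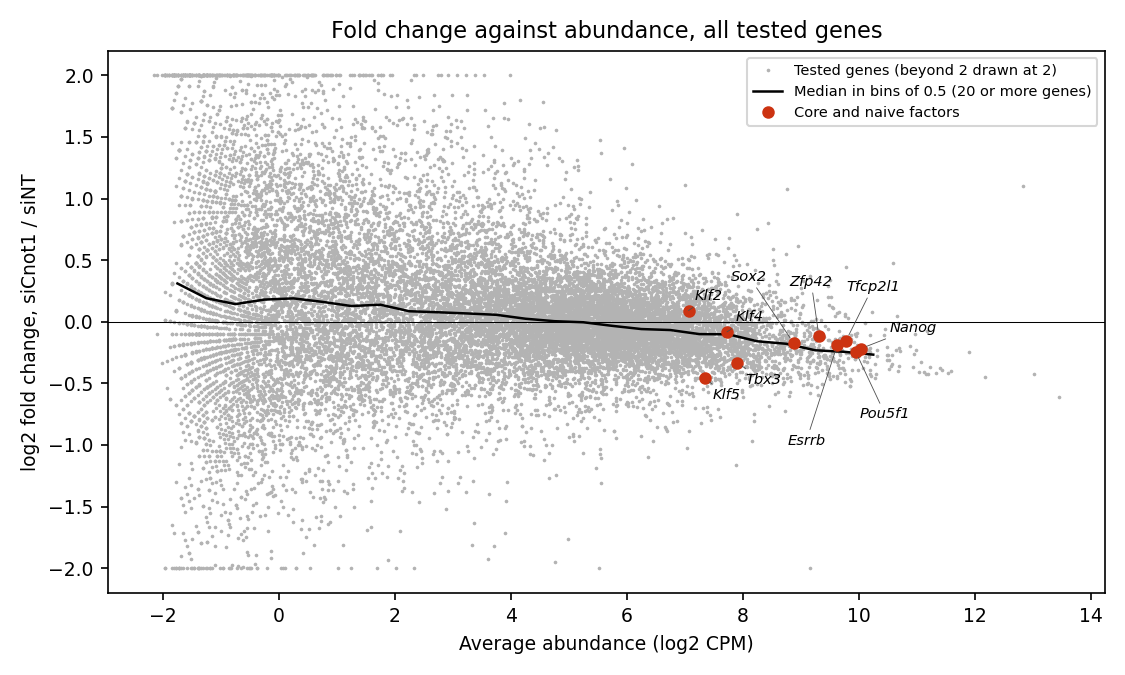
Log2 fold change (y axis, siCnot1 over siNT) against average abundance in log2 CPM (x axis) for the 18144 tested genes in grey, with values beyond 2 drawn at 2, the median in bins of abundance as a line and the 10 factors in red. The line falls as abundance rises, and the 3 core factors lie close to it while Klf5 and Tbx3 lie below it and Klf2 above it.

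The direction of several members depended on how the libraries were scaled. The siNT libraries had TMM factors of 0.964 and 0.963, those of siCnot1 had 1.04 and 1.03. With library totals alone the median of all tested genes rose to 0.12, and 3 members were called lower (Pou5f1, Klf5 and Tbx3) while 8.61% of all tested genes and 26.5% of those in the members' range were. Klf2 was then called higher at 0.20 (adjusted p = 0.0145), as 22.0% of all tested genes were, and Klf4 turned to 0.02. TMM and library totals each use a single factor per library, so going from one to the other shifts every gene alike. Values relative to the median of all tested genes are therefore the same under both by construction. They were -0.25 for Pou5f1, -0.18 for Sox2, -0.23 for Nanog, -0.47 for Klf5, -0.34 for Tbx3 and 0.08 for Klf2.

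A scaling that follows abundance, added after the data were seen, takes out the trend in the plot of fold change against abundance. Under it the log2 fold changes of Pou5f1, Sox2 and Nanog were -0.02, -0.004 and 0.01, with adjusted p of 0.842, 0.966 and 0.845 in edgeR's test. Esrrb, Tfcp2l1, Zfp42 and Klf4 turned to values of 0.02 to 0.08, none of them called. Klf5 stayed lower at -0.37 (adjusted p = 1.91e-05) and Tbx3 at -0.22 (adjusted p = 0.00303), and Klf2 was called higher at 0.17 (adjusted p = 0.0371). Under this scaling 12.9% of all tested genes were called lower and 14.6% higher. Klf5 and Tbx3 were called lower under each of the 5 scalings and after leaving out each library in turn, and no other member was. The 5 scalings are not independent checks. All but the abundance-dependent one use a single factor per library, and that one takes out the same trend as the comparison with genes of similar abundance. Whether the trend is technical or an effect of the knockdown was not tested. Klf5 ranged from -0.50 to -0.43 and Tbx3 from -0.37 to -0.31 over the 4 fits that left out 1 library. Pou5f1 stayed called in 2 of those 4 fits, and Nanog and Esrrb in 1 each.

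**Figure D4:**
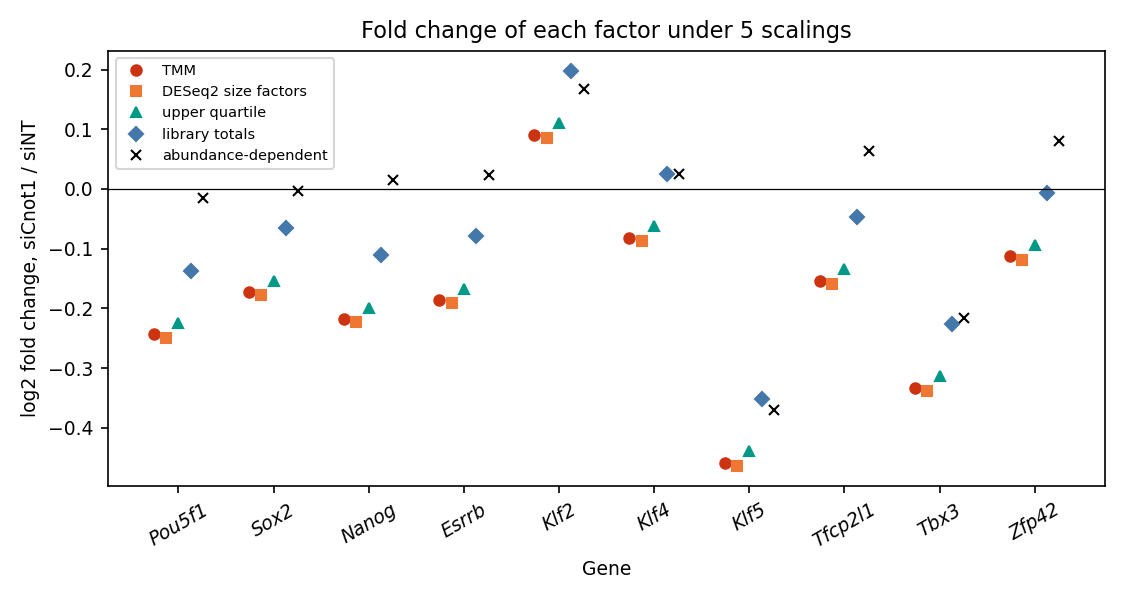
Log2 fold change (y axis, siCnot1 over siNT) of each factor under 5 scalings of the libraries, 1 symbol per scaling. Klf5 and Tbx3 lie below 0 under all 5 and Klf2 above 0 under all 5, while Nanog, Esrrb, Klf4, Tfcp2l1 and Zfp42 change sign under the abundance-dependent scaling.

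Levels of different genes can be set side by side only per exon length, here as TPM computed from the deposited counts and listed lengths. In siNT the order from high to low was Pou5f1 at 1813 ± 75.6 (SD, n = 2), Nanog at 1229 ± 44.3, Zfp42 at 646 ± 0.278, Sox2 at 493 ± 26.6 and Esrrb at 402 ± 1.89. Below them came Klf5 at 266 ± 6.36, Tfcp2l1 at 244 ± 16.1, Klf2 at 174 ± 3.74, Tbx3 at 126 ± 5.35 and Klf4 at 70.5 ± 4.84. No neighbours in this order overlapped. In siCnot1 the first 5 kept their places, Tfcp2l1 came sixth at 244 ± 7.65 TPM, and Klf5 came seventh at 216 ± 5.01 and overlapped with Klf2 at 208 ± 10.3.

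The makeup of the Krüppel-like factors changed between the groups. Klf5 supplied 52.2% and 51.8% of the summed TPM of Klf2, Klf4 and Klf5 in siNT, and 42.4% and 44.3% in siCnot1. Klf2 supplied 34.4% and 34.0% in siNT and 42.9% and 40.4% after knockdown, and the 2 transcripts stood at about the same level after the knockdown. Klf4 supplied 13.4% to 15.3% in the 4 libraries. The sum of the 3 depended on the scale: in TPM it lay between 495 and 521 with the groups overlapping, while per kilobase of exon in TMM-normalized CPM it went from 206.5 and 211.0 in siNT to 181.5 and 183.0 in siCnot1, a change of -12.7%. The log2 ratio of Klf5 to Klf2, which a single scaling factor per library cannot change, stood at 0.60 and 0.61 in control cells against -0.02 and 0.13 after knockdown, a difference of -0.55. Klf5 to Klf4 gave log2 ratios of 1.96 and 1.87 in siNT against 1.54 in both siCnot1 libraries.

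**Figure D5:**
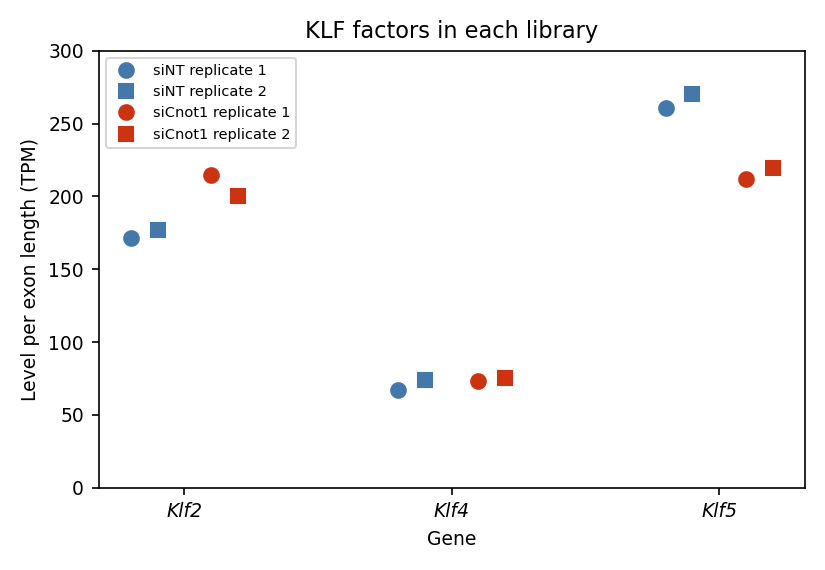
TPM (y axis, from 0) of Klf2, Klf4 and Klf5 in each library, with 1 point per library. Klf5 is the most abundant of the 3 in siNT, and in siCnot1 its lower library lies between the points of Klf2.

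Beyond the 10 factors, co-regulators of the network were read in the same fit. Of 20 co-regulators of the pluripotency network, all tested, 15 fell, 1 rose and 4 did not pass, with a median of -0.22. Beside them, 14.7% of all tested genes and 47.0% of those in the members' range of abundance were called lower. The 20 reach beyond that range of 7.06 to 10.03 log2 CPM, from Sox15 at 3.55 to Trim28 at 10.7. Those with the smallest p were Mycn (-0.57), which drives proliferation of ESCs, Prdm14 (-0.67), which represses FGF signaling and Dnmt3 genes, the chromatin factor Utf1 (-0.42) and the zinc finger factor Sall1 (-0.37). Prdm14 was at 55.7 and 54.9 normalized CPM in siNT and at 34.2 and 35.1 in siCnot1, a larger fall than that of any of the 10 factors. Tcf7l1, a repressor of the naive network, rose by 0.32 on the log2 scale, a call that was lost with DESeq2's test, without a filter on low counts, with the abundance-dependent scaling and without any 1 of the 4 libraries. The count of falls was 5 with library totals, beside 8.61% of all tested genes, 7 with the abundance-dependent scaling, beside 12.9%, and 4 without siNT replicate 2, the lowest of the 4 fits that left out a library. Mycn, Prdm14, Utf1 and Sall1 stayed called in all 4 of those fits.

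Among 16 targets and markers of naive or undifferentiated ESCs, 6 fell, 3 rose and 7 did not pass, with a median of -0.08. Of all tested genes 14.7% were called lower and 15.0% higher. Many of the 16 lie in the members' range of abundance, where 47.0% of genes were lower and 11.6% higher, with a median of -0.14. The falls with the smallest p were those of Tdgf1 (-0.45), a co-receptor of NODAL, Dppa5a (-0.42), Tcl1 (-0.46) and Dnmt3l (-0.35). Fgf4, a target of OCT4 and SOX2, rose from 159 and 150 normalized CPM in siNT to 196 and 194 in siCnot1, with a log2 fold change of 0.33 (SE 0.0586, adjusted p = 0.000130). Lefty1 (0.71), a NODAL inhibitor, and Alpl (0.24), the alkaline phosphatase used to stain ESCs, rose as well. The call of each of these 3 held with library totals and with the abundance-dependent scaling, but when 1 library was left out Fgf4 alone held in all 4 fits, Lefty1 being lost without siNT replicate 2 or siCnot1 replicate 1 and Alpl in each fit but that without siCnot1 replicate 2. Of the 16, 5 rose and 4 fell with library totals and 6 rose and 4 fell with the abundance-dependent scaling, and the falls numbered 3 without siNT replicate 1.

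The LIF input moved in both directions, with 3 of 5 genes called lower and 1 higher. Over all tested genes 14.7% were called lower and 15.0% higher. Lifr, the LIF receptor, rose from 94.8 and 101 normalized CPM in siNT to 144 and 134 in siCnot1, with a log2 fold change of 0.51 (SE 0.0646, adjusted p = 2.50e-06). Its partner Il6st, which encodes gp130, fell (-0.25), as did the transducer Stat3 (-0.23) and Socs3 (-0.36), a STAT3 target that feeds back on the receptor. Jak1 did not pass (-0.03). With library totals Socs3 alone fell, and Lifr rose under both of the other scalings and in all 4 fits that left out a library. The 3 falls held less well in those fits: Stat3 was called in none, Il6st only in that without siCnot1 replicate 1, and Socs3 in all but that without siNT replicate 1.

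Of 16 paralogs of the members, 3 rose, 3 fell and 10 did not pass, with a median of 0.0071, so that the counts in both directions were near the 15.0% higher and 14.7% lower of all tested genes. Sox3, of the same subfamily as Sox2, rose from 2.38 and 2.17 normalized CPM to 6.78 and 7.59, a log2 fold change of 1.66 (SE 0.213, adjusted p = 2.85e-06) at a level far under that of Sox2. Esrra (0.57) and Ubp1 (0.26), which belong to the families of Esrrb and Tfcp2l1, rose. Klf10 (-0.66), Pou2f1 (-0.38) and Yy2 (-0.38) fell, and the call of Yy2 alone among these 6 was lost with library totals (adjusted p = 0.126). When 1 library was left out, Sox3 and Klf10 stayed called in all 4 fits, Yy2 in none, Ubp1 only in that without siCnot1 replicate 2, Esrra in all but that without siNT replicate 2 and Pou2f1 in all but that without siNT replicate 1.

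Markers of other cell types that the cultures could hold were read in the same fit, and their part in the members' values was not tested. As background for each list, 14.7% of all tested genes were called lower and 15.0% higher. Among 6 markers of primed epiblast, Sox3 rose, Otx2 (-0.74) and Dnmt3b (-0.31) fell, 2 did not pass and Fgf5 had at most 5 counts in a library. Dnmt3b lost its call without siNT replicate 2 or siCnot1 replicate 2. The summed level of the tested ones was 106 and 113 normalized CPM in siNT and 92.1 and 92.0 in siCnot1. Of 8 markers of trophectoderm, Krt8 (-1.05), Krt18 (-1.17) and Tfap2c (-0.48) fell and none rose, and Cdx2 stayed under 0.6 normalized CPM in every library. Krt8 and Tfap2c stayed called when any 1 library was left out, and Krt18 only without siCnot1 replicate 1. The summed level of these markers went from 97.1 and 100.2 in siNT to 76.1 and 70.3 in siCnot1. Tfap2c made up most of it, at 57.9 and 58.6 in siNT and 42.5 and 40.9 in siCnot1.

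Of 8 markers of primitive endoderm, Pdgfra (1.02), Dab2 (1.02) and Cubn (2.07) rose and none fell. Gata4, Gata6, Sox17 and Sox7 did not pass, and Foxa2 had 0 to 4 counts. The background for each list here was again 15.0% of all tested genes higher and 14.7% lower. Cubn had 2 and 14 counts in siNT against 34 and 39 in siCnot1, and its call was lost without a filter on low counts. Dab2 alone stayed called when any 1 library was left out, Pdgfra being lost without siNT replicate 1 and Cubn in each fit but that without siNT replicate 2, and 4 of the 8 rose with library totals. Their summed level was 14.9 and 13.1 normalized CPM in siNT and 23.9 and 23.3 in siCnot1. Of 7 markers of early germ layers, Pax6 (-0.80) fell, 4 did not pass, T was at 0 counts in every library and Tbx6 had 3 to 13. The call of Pax6 was lost without any 1 of the 4 libraries. Their sum ranged from 32.5 to 36.9 normalized CPM. Of 6 fibroblast markers Col1a1 rose from 39 and 48 to 116 and 131 counts, Col1a2 did not pass, Col3a1 and Dcn had 0 counts in every library and Lum and Postn had at most 6, and the sum went from 1.25 and 1.91 to 4.18 and 4.0 normalized CPM. The call of Col1a1 was lost without siNT replicate 1.

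Of 13 markers of 2-cell-like cells, 9 rose, none fell, 3 did not pass and Duxf3 had 0 to 17 counts. Those that rose were Tcstv1 and genes of the Zscan4 and Usp17l clusters (Zscan4a to Zscan4f, Usp17la and Usp17lb), whose near-identical copies can share reads. Outside these clusters Zfp352 (0.68), Tcstv3 (0.63) and Tdpoz4 (0.16) did not pass. The shares over all tested genes were 15.0% higher and 14.7% lower. Tcstv1, among the 9, had 1 and 2 counts in siNT against 11 in each siCnot1 library. Its call was lost with DESeq2's test, limma-voom, the replicate block, the abundance-dependent scaling and without a filter on low counts. The summed level of the tested markers was 89.6 and 89.4 normalized CPM in siNT and 234 and 241 in siCnot1. The smallest p were those of Zscan4d (1.48), Zscan4e (1.60), Zscan4c (1.33) and Usp17la (1.65), which have near-identical copies that can share reads.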

How the data were processed

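Poly(A)+ RNA of 4 libraries (2 siNT, 2 siCnot1) was sequenced as paired reads of 150 bases from strand-marking cDNA. The authors deposited raw counts per gene with exon lengths, without pooling replicates; whether counting used strand is not given in the sources used here. The submitters' processing notes name fastp 0.19.4, HISAT2 2.2.1, DESeq2 1.40.2 and mm10, but the deposited gene positions differ from GRCm38 gene models, so no positions of the genes are printed. Groups came from the sample titles.

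Counts were scaled by TMM and compared with the quasi-likelihood test of edgeR 4.0.16 (limma 3.58.1, R 4.3.3; filterByExpr minimum count 10; condition as the only term; Benjamini-Hochberg over 18144 genes), after tests on simulated data. SE is the absolute log2 fold change over the square root of F, and intervals cover 95%. The fit had a biological coefficient of variation of 0.0721. TPM was computed from counts and exon lengths over all listed genes. Similar abundance means within 0.5 log2 CPM. Promoters came from RefSeq. Alternatives were other scalings, filters, DESeq2 1.42.0, limma-voom, a replicate block and leaving out each library; the abundance-dependent scaling (loess, span 0.3) and the sum with Zfp42-ps1 were added after the data were seen. The members and lists were chosen with earlier results of these data known. Beside the members and Cnot1, each list names its called genes where at most 5 passed in a direction, otherwise the 4 with the smallest p; Prdm14, Jak1 and genes named for absence or low counts are given for context.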

Additional observations from a re-analysis of the deposited data

How the results depend on the processing

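With 2 libraries in a group, small falls sit close to what the spread allows. The number of factors called lower was 7 with TMM, 3 with library totals, 4 without a filter on low counts, 2 with the abundance-dependent scaling and 2 to 5 when 1 library was left out. The number called higher was 1 with library totals and 1 with the abundance-dependent scaling, and 0 in every fit that left out a library. Their median log2 fold change was -0.0728 with library totals, 0.0192 with the abundance-dependent scaling, and -0.230 to -0.140 without 1 library. Single values that turned were those of Klf4 with library totals (0.0248), and Nanog (0.0146), Esrrb (0.0239), Klf4 (0.0258), Tfcp2l1 (0.0642) and Zfp42 (0.0798) with the abundance-dependent scaling. Of all tested genes, 1563 were lower with library totals, 1303 were higher and 1450 lower without a filter, and 743 to 1439 were higher and 871 to 1463 lower without 1 library; the lone library left in a group was assumed to vary like the other group. Library totals shift every gene alike, by the change in the median of all genes, and the causes of the other changes were not tested. With upper-quartile scaling Tfcp2l1 lost its call (adjusted p = 0.0703, edgeR). DESeq2's size factors and test, limma-voom and a filter of 1 CPM kept the count of factors lower within 1.5 times of 7. Without 1 library, 4 to 9 of the 20 co-regulators were lower.

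Replicate numbers were shared by the groups but the libraries were not shown to be paired: deviations of the 2 same-numbered pairs had a correlation of -0.00565. With the replicate block 5 of the 10 factors were lower, Sox2 and Tfcp2l1 no longer passing (edgeR adjusted p = 0.0570 and 0.0591), and 2524 of all tested genes were higher and 2431 lower. Taking the 200 genes nearest in abundance instead of those within 0.5 log2 CPM changed no median of similar genes in sign.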
